A study of Mus musculus with 14 samples.

Results

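The 8 libraries of the PEA experiment, in which newborn mice were kept with the odor 2-phenylethylamine (PEA), differed in how much vomeronasal receptor RNA they held. They were chosen by that signal and not by exposure. The score of a library was the mean of log2(value + 1) over all genes whose symbol begins with Vmn1r or Vmn2r and whose mean value was at least 10. Libraries with a score of 3 or more were called high, and those under 3 low. This gave 4 high and 4 low libraries of the 8, in a series of 14 libraries. The high libraries were control mice 1, 2 and 3 and PEA-exposed mouse 1, and the low libraries were control mouse 4 and PEA-exposed mice 2, 3 and 4.

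The olfactory epithelium of 4 control mice and 4 PEA-exposed mice was taken at postnatal day 5, with 1 library per mouse. All 8 are labelled wild type. Exposed mice had PEA in the cage from birth onward, and controls had none. The sample records give C57BL/6 as the strain background, while the methods of the study name CD-1 pups. The other experiment of the series compared 3 control mice (OMP-IRES-tTA het) with 3 mice that also carried tetO-Kir2.1-IRES-tauLacZ (Kir2.1 mice), all at postnatal day 5 and recorded as C57BL/6. In these the channel transgene was driven through the Omp locus, which is active in mature olfactory sensory neurons (OSNs) and also in vomeronasal neurons. The sample titles name the Kir2.1 mice Kir2.1-Off, the study's term for mice fed doxycycline after weaning to suppress the transgene. Its methods name the sequenced animals Kir2.1 pups, at an age before weaning. The PEA libraries held RNA depleted of ribosomal RNA, and the Kir2.1 libraries held RNA selected by its poly-A tail. The 2 tables were normalized separately, so values are compared within a table only. The methods call the controls of the Kir2.1 pups their littermates. Nothing in the sources tells which single mice shared a litter or a day, or how far the dissection of each nose reached.

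The vomeronasal organ is a tubular organ in the base of the nasal septum, next to the main olfactory epithelium. Its neurons detect pheromones and signals from other species with receptors of the families V1R (Vmn1r genes) and V2R (Vmn2r genes). V1R neurons use a G protein with the subunit Gnai2 and V2R neurons one with Gnao1, and both open the cation channel Trpc2. Some of them also carry formyl peptide receptors (Fpr-rs genes) or class Ib histocompatibility genes of the H2-M group. OSNs of the main epithelium instead carry odorant receptors (Olfr genes) and use the adenylyl cyclase Adcy3 and the channel Cnga2. In whole tissue, fewer cells of a type and less RNA per cell cannot be told apart.

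The scores lay far from the threshold. They were 5.77 in control mouse 1, 5.33 in PEA-exposed mouse 1, 4.68 in control mouse 2 and 3.91 in control mouse 3. They were 1.66 in PEA-exposed mouse 2 and 1.38 in each of PEA-exposed mice 3 and 4 and control mouse 4. The lowest high library and the highest low library thus stood at 3.91 and 1.66, and no library lay between them. From here on, values of the high libraries are given in the order of the score (control 1, exposed 1, control 2, control 3), followed by those of the low libraries (exposed 2, exposed 3, control 4, exposed 4). The score was made of 126 genes, 46 Vmn1r and 80 Vmn2r, of 573 such genes in the table. Exposed mice had a mean score of 2.44 ± 1.93 and controls of 3.93 ± 1.86 (SD, n = 4 each), a difference of -1.49 that did not exceed the spread between mice (exact two-sided permutation test, p = 0.3429, the smallest possible being 0.0286).

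**Figure D1:**
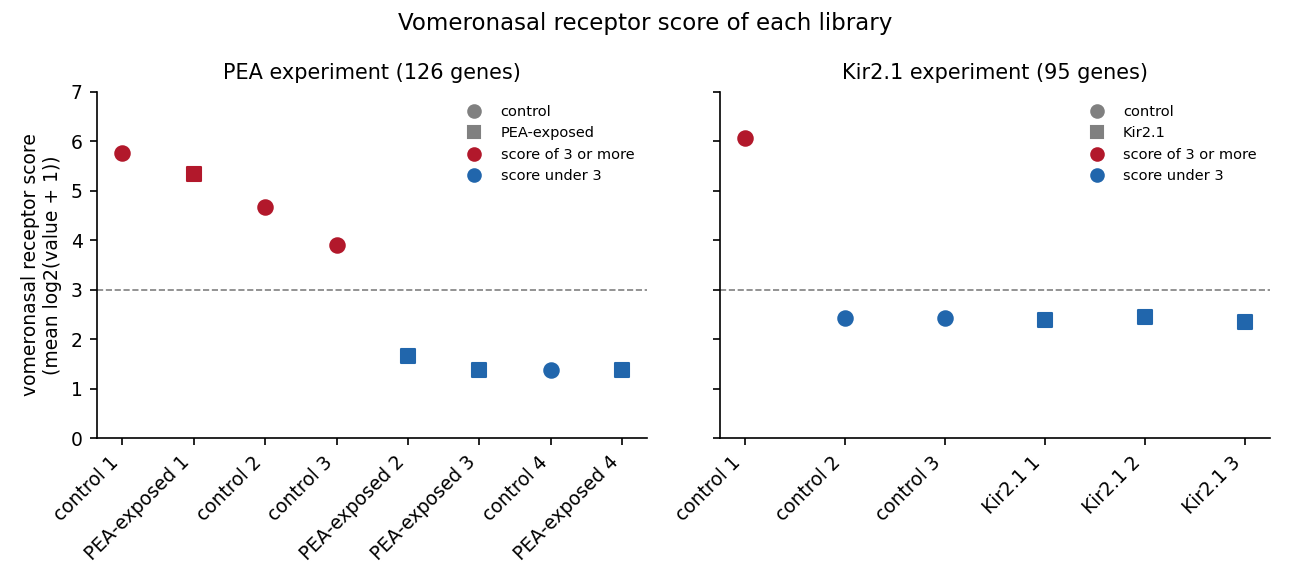
Score of each library (mean of log2(value + 1) over vomeronasal receptor genes) in the PEA experiment and in the Kir2.1 experiment, with circles for controls, squares for exposed or Kir2.1 mice and a dashed line at the threshold of 3. The high PEA libraries span 3.91 to 5.77 and the low ones 1.38 to 1.66, and control mouse 1 is the sole library of the Kir2.1 experiment above the line, at 6.06.

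The receptor genes that made the score were compared between high and low libraries as a description, with no test. Their values summed to 10636, 7886, 5088 and 3015 in the high libraries and to 678, 654, 656 and 586 in the low ones. Between 316 and 345 of the 573 genes were above 0 in a high library, against 151 to 230 in a low one. Of the 46 Vmn1r genes, 35 lay above every low library in every high library, with a median log2 difference of 3.57 over the family. Of the 80 Vmn2r genes, 73 did, with a median of 3.73. For 1 Vmn1r and 6 Vmn2r genes all low libraries were listed at 0, and without them the medians were 3.57 and 3.65.

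Vmn2r1, a broadly used V2R of vomeronasal neurons, stood at 311, 198, 148 and 63.4 in the high libraries and at 13.3, 7.40, 13.1 and 16.3 in the low ones. Vmn2r2 gave 338, 158, 112 and 65.1 against 20.2, 19.5, 7.52 and 15.7, and Vmn2r49 gave 272, 179, 86.0 and 57.1 against 0.87, 0, 3.47 and 0. All 3 followed the order of the score among the high libraries. Among V1R genes, Vmn1r28 stood at 144, 127, 78.4 and 52.2 against 1.97, 0, 0 and 1.03. Vmn1r184 did not follow the order, with 67.3, 108, 28.4 and 22.6 in the high libraries against 3.32, 3.33, 3.02 and 0 in the low ones. Over the families, 12 of 46 Vmn1r and 46 of 80 Vmn2r genes followed it.

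Not every receptor gene belonged to the difference. Vmn1r180 overlapped, at 37.0, 39.4, 65.8 and 52.0 in the high libraries and 12.5, 33.9, 65.8 and 25.9 in the low ones. Vmn1r4 lay between 23.4 and 38.4 in the high libraries and between 19.9 and 27.4 in the low ones (log2 difference 0.27). Vmn1r178 lay between 13.8 and 24.5 and between 9.79 and 21.2 (0.16). These 3 were the sole Vmn1r genes with a mean of at least 10 in the low libraries, where 8 Vmn2r genes also reached it. Vmn1r genes made 33.2% to 38.6% of the summed receptor value in the high libraries and 42.5% to 48.9% in the low ones. In the Kir2.1 experiment the order was the opposite, with 37.8% in control 1, the library with the high score, and 22.3% to 28.1% in the other 5. Across the 126 genes, the log2 values of any 2 high libraries correlated at 0.43 to 0.55 (Pearson), a description over genes that share a library and, where near-identical, share reads.

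Outside the receptor families, 17196 genes had a mean of at least 10. A gene was called higher when its log2 difference, high minus low, was at least 1 and all 4 high libraries lay above all 4 low ones, and lower in the mirror case. By this rule 34 genes were higher, 0.198% of those examined, and 29 were lower, 0.169%. Without regard to size, 295 genes (1.72%) lay above and 254 (1.48%) lay below every low library. The libraries were selected on a signal from the same tissue, so none of these counts carries a test. The median difference over all genes was 0.01. Leaving out a library eased the demand that groups do not overlap: 58 genes were higher without control 2, 53 without control 3, 72 without control 4 and 72 without exposed 1, and 67 were lower without control 2, 96 without control 4, 112 without exposed 1, 51 without exposed 2 and 52 without exposed 3. Of the 34 higher genes, 26 to 33 kept the call with any single library left out, as did 26 to 29 of the 29 lower genes.

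**Figure D2:**
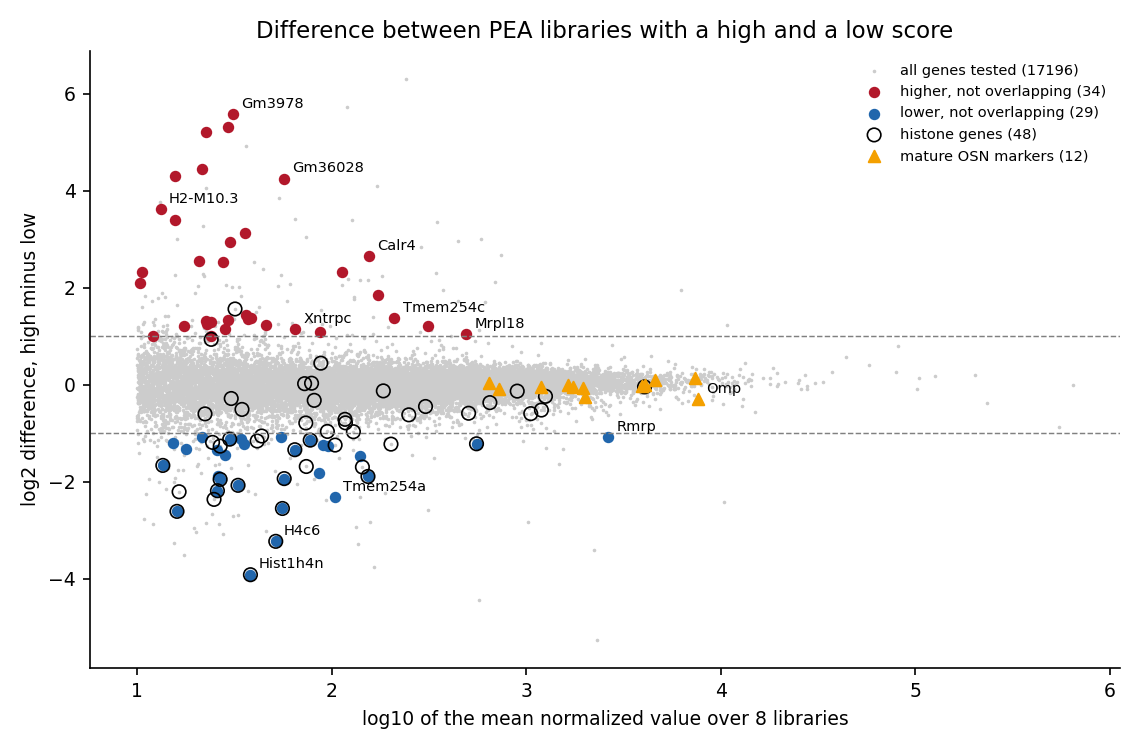
Log2 difference between high and low PEA libraries against the log10 mean value of each of the 17196 genes, with red points for the 34 higher genes, blue points for the 29 lower ones, black rings for 48 histone genes and triangles for 12 markers of mature OSNs, and dashed lines at 1 and -1. Most histone genes sit below 0 and the OSN markers sit close to it, and grey points beyond the lines belong to genes whose libraries overlap.

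Genes that vomeronasal neurons use besides their receptors were mixed. Calr4 is a calreticulin of the endoplasmic reticulum that helps V2R receptors to the cell surface. It stood at 616, 203, 175 and 102 in the high libraries and at 55.4, 34.9, 22.0 and 29.8 in the low ones, a log2 difference of 2.66. Its 4 high values followed the order of the score, and the lowest of them was above every low library. Calr4 (ENSMUSG00000028558) lies on chromosome 4 of GRCm38.

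Trpc2 encodes the channel that vomeronasal transduction depends on, and its locus on chromosome 7 (102083116 to 102096396) lies within that of Xntrpc (102065713 to 102096864), a readthrough of the upstream gene Xndc1 into Trpc2. Reads from the shared exons may be split between the pair. Trpc2 alone overlapped, at 61.6, 55.2, 39.5 and 36.5 against 53.0, 39.4, 23.2 and 26.5 (0.47). Xntrpc did not, at 130, 84.7, 85.6 and 61.6 against 33.1, 40.5, 47.6 and 35.6 (1.15). The sum of both was 192, 140, 125 and 98.1 in the high libraries and 86.0, 79.9, 70.8 and 62.1 in the low ones, a log2 difference of 0.85 with no overlap. Without control 1 the difference of Xntrpc was 0.96, under the limit for a call.

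The G protein subunits did not separate the libraries. Gnao1 lay between 337 and 773 in the high and between 367 and 827 in the low libraries, and Gnai2 between 541 and 734 and between 576 and 701. Of the 7 signaling genes on the list (Trpc2, Gnao1, Gnai2, Gng8, Calr4, Plcb2 and Ano1), all passed the filter, 1 was higher and 0 were lower, and the median difference was -0.04. Gnao1, Gnai2, Gng8 and Ano1 are also used by other cells of the epithelium. The axon sorting genes Kirrel2, Kirrel3, Nrp2, Robo2 and Efna5 had 0 of 5 called in either direction, with a median of -0.09.

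Several genes of vomeronasal neurons were too low for the filter, and for these the values alone are given. Tfap2e encodes AP-2ε, a transcription factor of V2R neurons. It stood at 19.5, 9.33, 9.36 and 4.80 in the high libraries and at 0, 0, 0.60 and 0.77 in the low ones. The other genes on the list of transcription factors, Meis2 (0.08) and Bcl11b (-0.17), passed the filter and overlapped. The formyl peptide receptor Fpr-rs3 stood at 11.6, 7.93, 5.43 and 2.88 and was listed at 0 in all 4 low libraries. It was the sole member of the 7 formyl peptide receptor genes that lay above every low library. Fpr1, Fpr2 and Fpr3, which are better known from blood cells, overlapped, as did Fpr-rs4, Fpr-rs6 and Fpr-rs7. Among the H2-M genes, H2-M10.3 passed the filter, at 50.9, 19.2, 23.2 and 8.66 against 1.95, 1.04, 0.78 and 0 (3.62), though its mean was under 10 without control 1. H2-M1 gave 15.3, 7.15, 3.28 and 8.52 against 0, 0.90, 0 and 0, and H2-M10.1 gave 20.7, 12.5, 4.71 and 1.03 and was listed at 0 in every low library. Of the 10 genes on this list, 3 passed the filter, 1 was higher and 5 lay above every low library, and H2-M10.2 (1.29) and B2m (0.17) passed and overlapped. Over the H2-M and Fpr-rs genes, 44 of 56 values were listed at 0 in the low libraries and 15 of 56 in the high ones. Without the filter, 469 of all 50638 genes outside the receptor families lay above every low library, and 20700 were listed at 0 in all 4 low ones. A share of zeros over other genes with values this low was not computed, so these counts are a description. At an estimated 9764662 to 15074993 reads per library, a value near 1 stands for about 1 read, so zeros here do not show that a gene was silent.

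**Figure D3:**
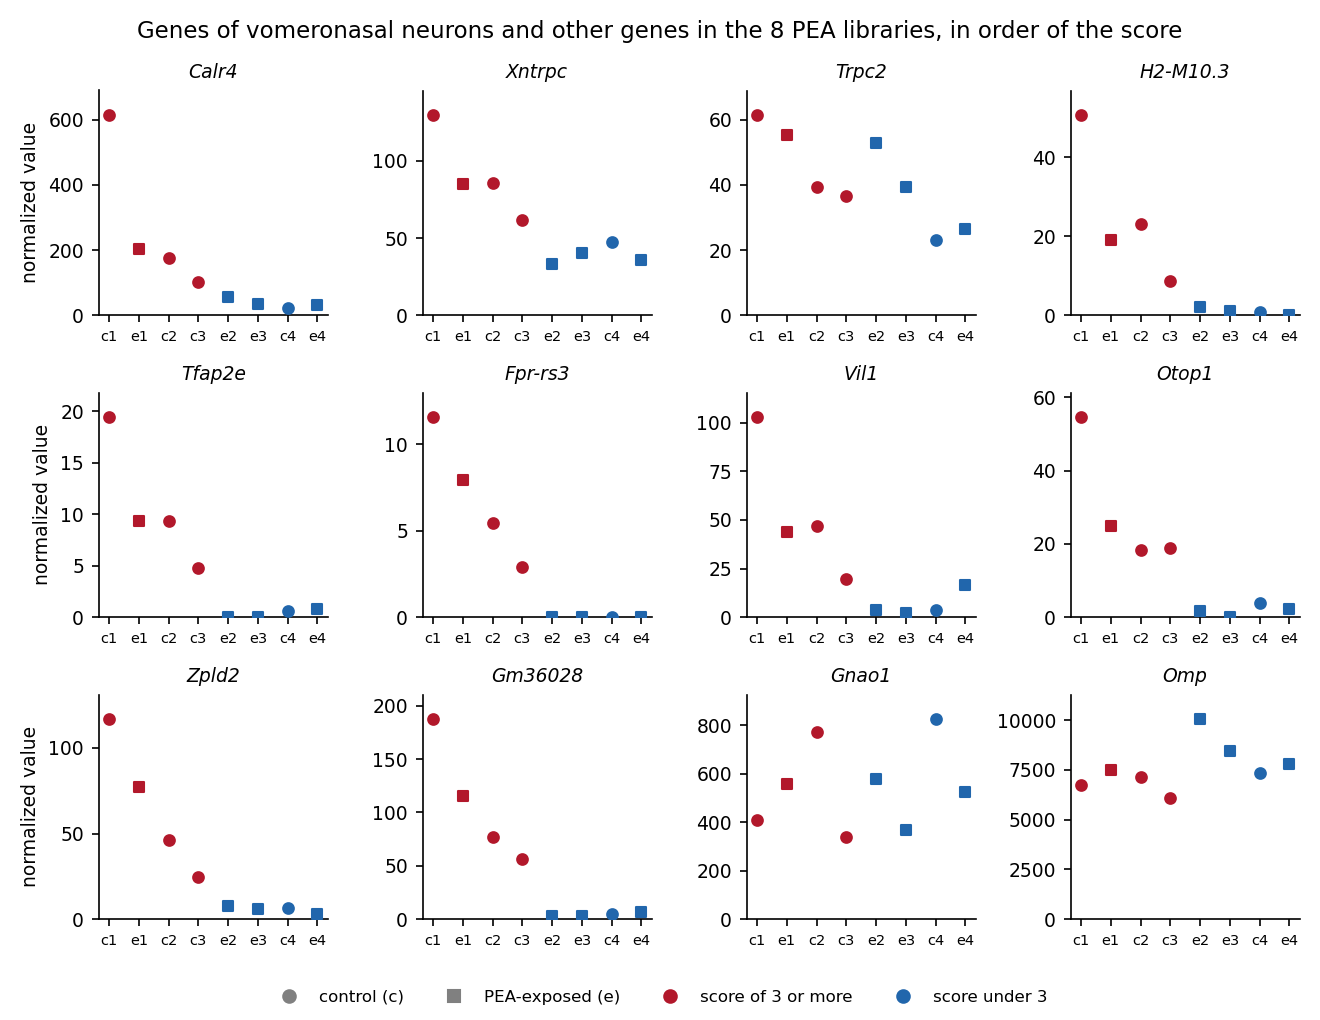
Normalized value of 12 genes in each of the 8 PEA libraries, ordered by score from left to right, with red for high and blue for low libraries, circles for controls (c) and squares for exposed mice (e); each panel has its own scale from 0. Calr4, Xntrpc, H2-M10.3, Tfap2e, Fpr-rs3, Vil1, Otop1, Zpld2 and Gm36028 are above every low library in all 4 high libraries, while Trpc2, Gnao1 and Omp overlap.

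Part of the higher genes lay among vomeronasal receptor genes. Of the 33 with a position in GENCODE vM21, 6 lay within 100000 bp of a Vmn gene, as did 137 (0.81%) of the 16917 genes examined that had a position. Among the 6, AC139131.1 overlaps Vmn2r54 and Gm45844 overlaps Vmn2r29, so their values may hold reads of these receptor genes. The unprocessed pseudogenes Gm3978 and Gm3675, both on chromosome 7, are named after their values were seen, and lie 45867 bp from Vmn2r36 and 81108 bp from Vmn2r41. Gm3978 stood at 150, 42.2, 35.5 and 21.5 in the high libraries and was listed at 0 in all low ones, and Gm3675 stood at 97.3, 37.1, 33.9 and 13.3 and likewise at 0. Where such pseudogenes resemble each other or their neighbors, reads may be split between them. Of the 34 higher genes, 15 were gene models or pseudogenes, as were 4 of the 29 lower ones and 12.5% of all genes examined.

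Other higher genes have no settled place in vomeronasal neurons in the lists used here. Vil1 encodes villin, which bundles the actin of microvilli, the apical processes that vomeronasal neurons have in place of cilia. It stood at 103, 44.0, 47.0 and 19.6 against 3.63, 2.36, 3.87 and 16.7 (2.94). Otop1, a proton channel known from sour taste cells and the inner ear, stood at 54.8, 24.8, 18.3 and 18.9 against 1.71, 0, 4.00 and 2.20 (3.41). It was among 5 of the 34 higher genes, with H2-M10.3, Glt1d1, Gm42791 and Gm45808, whose mean was under 10 without control 1, so that they were then not examined. Zpld2 stood at 117, 77.3, 46.0 and 24.6 against 7.97, 6.04, 6.52 and 2.88 (3.14). The gene model Gm36028, on chromosome 16, stood at 188, 115, 76.7 and 56.3 against 2.76, 3.31, 5.17 and 6.44 (4.25). In Zpld2 and Gm36028, as in Calr4, the high libraries followed the order of the score, which held for 7 of the 34 higher genes and for 455 (2.65%) of all 17196.

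The remaining named genes differed less. Slc5a11, a sodium-coupled inositol transporter, lay between 101 and 479 in the high libraries and between 37.0 and 88.1 in the low ones (1.85). Car9, a carbonic anhydrase, lay between 24.6 and 51.4 and between 12.9 and 23.9 (1.16). Glt1d1 lay above every low library in the high ones, and differences of 1.01 to 1.44 were found for Clca3b, Serpina1c, Acvrl1, Olfr90, Ccdc167, Dhtkd1, Mrpl18, Colec10 and Fxyd4. Their functions range widely, from a protease inhibitor of the serpin family (Serpina1c) and a receptor of the TGF-β group in blood vessels (Acvrl1) to a protein of the mitochondrial ribosome (Mrpl18). Olfr90 was the sole higher gene among 994 odorant receptor genes that passed the filter, and Olfr1200 was the sole lower one.

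The promoters of 3 higher genes are shown because the transcription factor gene Tfap2e was itself above every low library in the high ones. Each runs from 250 bases before to 50 after the annotated start (RefSeq, GRCm38.p6), and capitals mark matches on either strand to the AP-2 site GCCNNNGGC. No match to the Ebf site TCCCNNGGGA or to the homeodomain core TAATTA was found in them.
H2-M10.3, chr17:36368368-36368667, minus strand: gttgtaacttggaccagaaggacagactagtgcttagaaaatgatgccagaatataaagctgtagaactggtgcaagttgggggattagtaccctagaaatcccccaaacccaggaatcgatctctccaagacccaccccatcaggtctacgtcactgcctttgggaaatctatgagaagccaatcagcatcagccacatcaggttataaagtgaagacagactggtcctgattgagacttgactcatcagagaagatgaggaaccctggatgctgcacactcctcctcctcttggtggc
Vil1, chr1:74409134-74409433, plus strand: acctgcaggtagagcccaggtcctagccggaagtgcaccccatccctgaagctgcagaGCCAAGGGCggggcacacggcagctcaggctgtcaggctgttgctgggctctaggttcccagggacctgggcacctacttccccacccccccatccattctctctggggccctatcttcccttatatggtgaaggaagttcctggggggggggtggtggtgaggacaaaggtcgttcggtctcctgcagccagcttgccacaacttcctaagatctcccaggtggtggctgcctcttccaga
Otop1, chr5:38277154-38277453, plus strand: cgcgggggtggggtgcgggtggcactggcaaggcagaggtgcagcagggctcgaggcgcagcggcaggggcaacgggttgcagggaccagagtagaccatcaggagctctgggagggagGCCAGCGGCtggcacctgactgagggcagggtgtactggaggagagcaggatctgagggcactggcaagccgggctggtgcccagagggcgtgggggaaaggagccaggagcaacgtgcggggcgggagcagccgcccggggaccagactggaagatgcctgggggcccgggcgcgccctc
Of the 19 higher genes with a promoter in the table, 4 held the AP-2 letters, against 16.6% of 32851 promoters of the same length. The Ebf letters were in 0 of 19 and in 0.904% of all, and the homeodomain letters in 0 of 19 and in 5.29%. The promoters of Calr4, Xntrpc, Tfap2e and Fpr-rs3, not printed here, held no match to any of these letters. A match is a description of the letters, and says nothing on what binds there.

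No single marker of other cells of the nose was called. Of 128 genes on 20 lists, from OSNs and sustentacular cells to bone, blood and olfactory bulb, 100 passed the filter and 0 were called higher or lower, while list medians ran from -0.42 to 0.57. Without regard to size, Top2a and Myh11 lay above and C1qa lay below every low library. Among the sums of these lists, that of skeletal muscle alone did not overlap. It lay at 33.4 to 44.2 in the high and 24.4 to 32.0 in the low libraries, and 1 of its 6 genes passed the filter. Omp, the marker of mature OSNs, stood at 6727, 7510, 7127 and 6087 in the high libraries and at 10082, 8427, 7327 and 7821 in the low ones (-0.29, overlapping). The 12 OSN markers together had a median difference of -0.03 and the 7 sustentacular markers 0.05. The 994 odorant receptor genes had a median of -0.08, with 5 above and 9 below every low library.

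A single high library stood apart in bone genes. Ibsp, bone sialoprotein, was at 1765 in control 1 and between 229 and 493 in the other 3 high libraries, against 227 to 345 in the low ones. The 7 bone genes summed to 2969 in control 1 and to between 1014 and 1306 in the other 7 libraries. The 9 nasal lipocalins and odorant-binding proteins in the table summed to between 28396 and 43152 in the high libraries and between 20281 and 44754 in the low ones. Xist and Ddx3y marked 2 of the high libraries and 3 of the low ones as female. Within females alone and within males alone, 24 of the 34 higher genes and 24 of the 29 lower genes had a difference of at least 1. The call sets the sign of these differences, so the counts describe their size only, and a single low library was male.

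Of the 29 lower genes, 14 were on a list of replication-dependent histone genes, taken by symbol. Such genes are transcribed in dividing cells, and their RNA typically ends in a stem-loop in place of a poly-A tail. Hist1h2al, among the 14, is annotated as a processed pseudogene. This list was made after the values were seen. H4c6 stood at 7.88, 10.8, 7.39 and 8.41 in the high libraries and at 109, 71.0, 54.9 and 143 in the low ones (-3.23). Hist1h4n stood at 9.10, 0, 3.79 and 5.40 against 97.4, 21.7, 89.6 and 79.0 (-3.92), and H4c4 at 31.2, 118, 91.7 and 40.1 against 181, 164, 286 and 318 (-1.89). The linker histone gene H1f3 was the most abundant of them, at 257, 601, 320 and 222 against 706, 650, 719 and 973 (-1.22). In H1f3 and H4c4, exposed 1 was the highest of the high libraries. Over all 48 histone genes that passed the filter, 43 had a negative difference, 19 lay below every low library and 0 lay above, with a median of -1.01. Of all 17196 genes, 254 (1.48%) lay below every low library, and the median was 0.01. The histone list was drawn up from these same values, so the contrast is a description.

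Of the 13 lower histone genes with a position, 12 lay in the cluster on chromosome 13 between 21831767 and 23751598 (GRCm38). Copies in that cluster are near-identical and reads may be split between them, so single values are uncertain. The stem-loops of 4 members that hold different letters are shown, 3 of them lower and 1 with a difference close to 0, with the paired stem in capitals and the loop in lower case, as found in GENCODE vM21 transcripts.
H4c6, difference -3.23: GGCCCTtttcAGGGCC
H2bc7, difference -2.18: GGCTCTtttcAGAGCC
H3c3, difference -2.07: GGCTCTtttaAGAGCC
H4c9, difference 0.02: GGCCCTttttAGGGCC
The motif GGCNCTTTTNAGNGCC was on the transcript strand of 49 of 141767 transcripts (0.0346%). It was found for 30 of the 48 genes, of which 12 were lower and whose median difference was -1.16. Of the 14 genes with a transcript that lacked it, 1 was lower and the median was -0.75, and for 4 genes no transcript was found. The ranges overlapped, from -3.92 to 0.94 with the motif and from -2.21 to -0.04 without. Among the 12 lower genes with the motif, the annotated transcript ran on for 3 (Hist1h2ap) to 4884 (H1f3) bases after it.

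Small non-coding RNAs that also lack a poly-A tail had mostly negative differences, on a list likewise made after the values were seen. Rmrp, the RNA of the processing enzyme RNase MRP, stood at 1214, 2358, 2090 and 1215 in the high libraries and at 2833, 2749, 4014 and 4696 in the low ones (-1.08), and was the sole member called. Its difference was -0.94, under the limit for a call, without control 1, control 3 or exposed 4. Rpph1, the RNA of RNase P, stood at 418, 1585, 854 and 364 against 2091, 1537, 2032 and 2958 (-1.64) and overlapped. Of the 16 that passed the filter, 15 had a negative difference and 3 lay below every low library (1.48% of all genes did), with a median of -0.57. Rn7s1, the RNA of the signal recognition particle, took 2.03% to 5.22% of a high library's summed value and 4.61% to 7.12% of a low one's. Exposed 1 had the highest Rn7s1, Rmrp and Rpph1 values of the high libraries. The proliferation genes Mki67 and Top2a, which are polyadenylated, differed by 0.18 and 0.12. What share of the histone difference goes with the makeup of the RNA in each library was not tested.

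**Figure D4:**
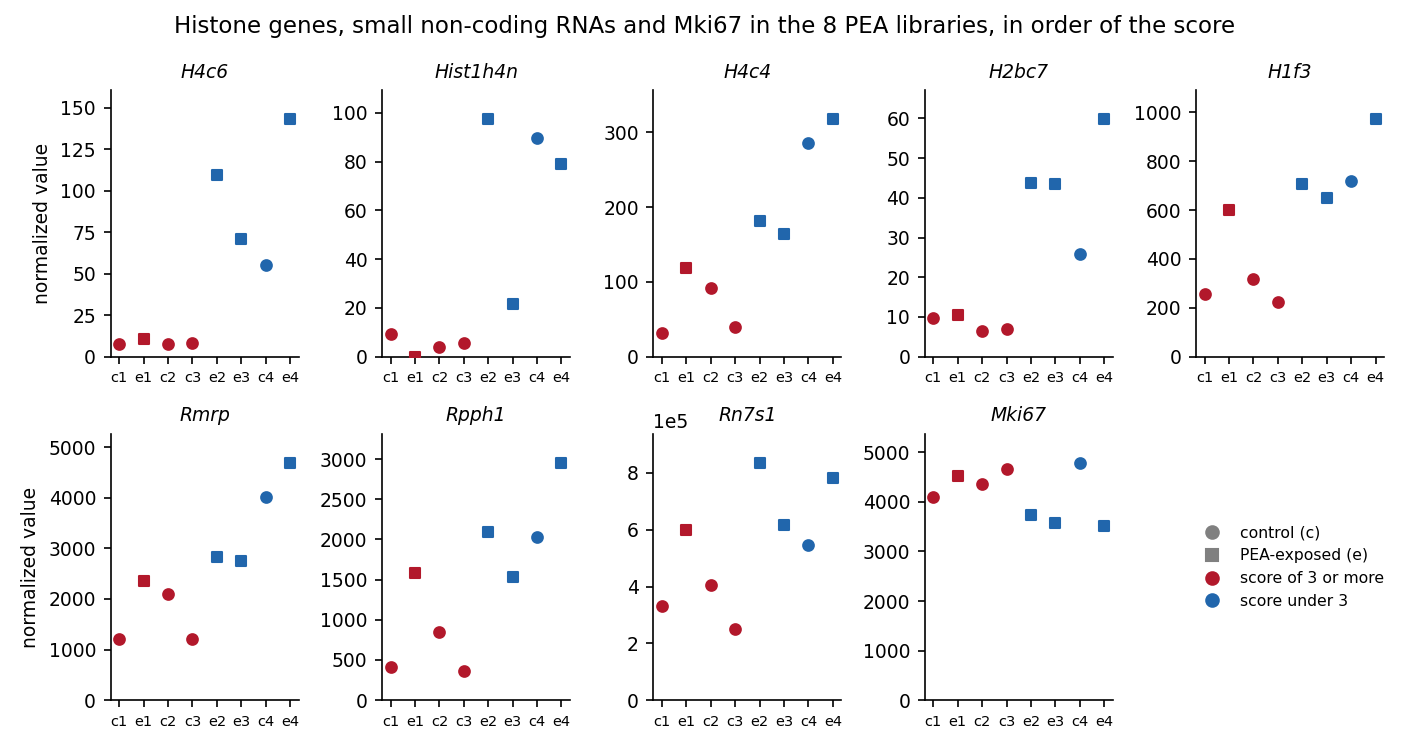
Normalized value of 5 histone genes, 3 small non-coding RNAs and Mki67 in each of the 8 PEA libraries, ordered by score from left to right, with red for high and blue for low libraries, circles for controls (c) and squares for exposed mice (e); each panel has its own scale from 0. The histone genes and Rmrp are below every low library in the high ones, Rpph1 and Rn7s1 are lower with overlap, and Mki67 overlaps between 3505 and 4795.

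The other lower genes shared no list. Tmem254a, a membrane protein gene on chromosome 14, stood at 40.9, 33.6, 26.5 and 35.6 against 175, 179, 149 and 190 (-2.32). Its near-identical neighbor Tmem254c went the other way, at 348, 210, 293 and 350 against 72.3, 112, 195 and 101 (1.38). Reads can be split between the pair, and the values do not tell them apart with certainty. Bcl9l, a coactivator of Wnt signaling, lay between 17.8 and 85.3 in the high libraries and between 90.6 and 157 in the low ones (-1.82). Lrch4, Tnr, Tnk2, Ccdc130 and Inpp5d had differences of -1.07 to -1.47.

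Because 3 of the 4 high libraries were controls, the split was partly mixed with exposure. Within controls (1, 2 and 3 against 4) and within exposed mice (1 against 2, 3 and 4), 22 of the 34 higher genes and 10 of the 29 lower ones had a difference of at least 1 in both. The call sets the sign within each group, so these counts describe size only. Calr4 differed by 3.29 within controls and 2.36 within exposed mice, and H4c6 by -2.65 and -3.15. H1f3 differed by -1.45 within controls but by -0.35 within exposed mice, and Rmrp by -1.46 and -0.49. Over the 14 lower histone genes, 7 differed more within exposed mice than within controls and 7 less. The difference between the 2 strata was not tested.

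Exposure itself was tested over all genes with limma and Benjamini-Hochberg adjustment, since its labels did not enter the split. Of 17322 genes, 31 (0.179%) had an adjusted p under 0.05, 25 higher and 6 lower in exposed mice, and 2593 an unadjusted p under 0.05. None of the 34 higher or 29 lower genes was among the 31, which the choice of the libraries favors, since a called gene must differ within each exposure group. Of the 34, 7 had an unadjusted p under 0.05 and the smallest adjusted p was 0.113 (Tmem254c), and of the 29, 12 did and the smallest was 0.157 (H3c3). The direction by exposure is also largely set by the call, since most high libraries were controls. Exposed mice had lower means for all 34 higher genes (median log2 fold change -0.94) and higher means for all 29 lower genes (median 0.93). With the high or low class as a term in the limma model, these medians were 0.00 and 0.30. None of the 126 receptor genes had an adjusted p under 0.05 by exposure in limma, and 6 had an unadjusted p under 0.05, all lower in exposed mice.

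The number of genes called by exposure was smaller with the class of the library in the model, a term that overlaps with exposure and also costs precision. With the class as a term, limma called 16 genes, all among the 31, and with the score as a term 20, again all among the 31. Ang4 and Ang5, ribonucleases of the angiogenin family, kept their calls: Ang5 was higher in exposed mice by 11.16 ± 0.53 on the log2 scale (SE), with Benjamini-Hochberg adjusted p-values of 7.15e-06 in limma without the class and 5.18e-05 with it. H2-K1, a classical histocompatibility gene, was higher by 1.46 ± 0.22 (SE) without the class and by 1.26 ± 0.24 with it, and its adjusted p-values in these limma fits were 0.0371 and 0.201. Leaving out control mouse 1, 2, 3 or 4, limma called 22, 24, 28 and 43 genes. Leaving out exposed mouse 1, 2, 3 or 4, it called 36, 19, 19 and 20.

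The Kir2.1 experiment gave libraries that the split had not used. Its control mouse 1 had a score of 6.06 over the 95 receptor genes that passed there, and the other 5 libraries lay between 2.35 and 2.45. A single high library allows no test, and its values are given alone. The other 5 are the remaining controls and the Kir2.1 mice, so a difference of control 1 from them is partly mixed with genotype. Control 1 lay above the other 5 for 24 of 25 Vmn1r and 51 of 54 Vmn2r genes that passed the mean of 10 in both tables. Genes of these families made its score, so this is a description. Outside the families, control 1 lay above the other 5 for 15.1% of 16626 genes. Some receptor genes reached the mean of 10 only through control 1, such as Vmn2r49 (172, the others listed at 0). Of the 34 higher genes, 23 passed that mean here, and in 8 of them control 1 lay above the other 5 by at least 1, as it did for 178 (1.07%) of 16626 genes. The 8 were Gm3972, Gm36028, AC139131.1, Vil1, Otop1, Calr4, Zpld2 and Car9, of which AC139131.1 overlaps the receptor gene Vmn2r54. Of the 9 genes with a PEA difference of at least 2, 7 were among them, and of the 14 with a smaller one, 1 was. The mean of 10 includes control 1, so genes high in that library pass it more easily, here and among the 16626. Gm3972 passed only through control 1, at 73.5 against at most 5.84 in the other 5. AC139131.1 (106) and Gm36028 (196) were under 10 in most of the other 5. The share of 8 in 23 is thus raised by the filter, and its comparison with 1.07% is a description.

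Calr4 stood at 638 in control 1, at 94.4 and 97.7 in the other controls and between 63.9 and 126 in Kir2.1 mice. In the same order, Vil1 gave 268, 17.2 and 25.5, and 22.9 to 33.0. Otop1 gave 98.1, 32.3 and 14.8, and 6.04 to 11.7. Zpld2 gave 1952, 1122 and 902, and 434 to 495. Tfap2e stood at 98.4 against 0 to 1.97, and Fpr-rs3 at 14.2 with the others listed at 0. Trpc2 and Xntrpc summed to 1346 in control 1, 904 and 814 in the other controls and 553 to 561 in Kir2.1 mice. Slc5a11, Ccdc167, Acvrl1 and Mrpl18, which were higher in the PEA experiment, did not lie above the others here.

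**Figure D5:**
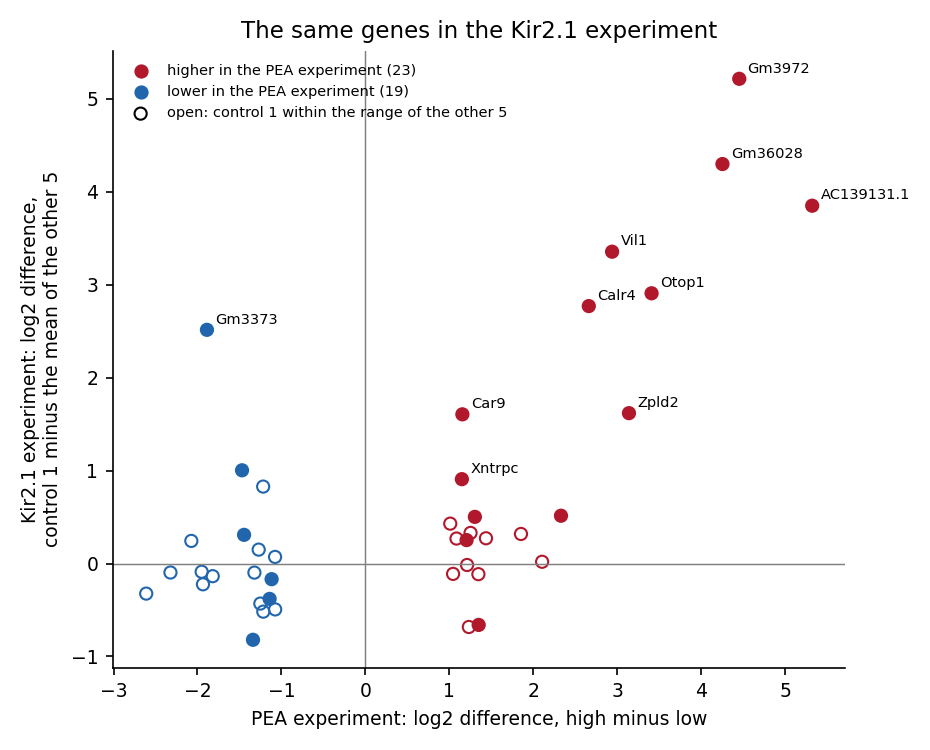
Log2 difference of control mouse 1 from the mean of the other 5 libraries in the Kir2.1 experiment against the log2 difference between high and low PEA libraries, for the 23 higher genes (red) and 19 lower genes (blue) with a mean of at least 10 in both tables. Filled points are genes whose control 1 value lies outside the range of the other 5; Gm3972, Gm36028, AC139131.1, Vil1, Otop1, Calr4 and Zpld2 stand at the upper right, and most lower genes lie between -1 and 1, with the gene model Gm3373 at 2.51.

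Of the 29 lower genes, 19 passed the mean of 10 in the poly-A selected libraries. Control 1 lay below the other 5 by at least 1 in 0 of these, against 158 (0.95%) of 16626 genes. Without regard to size it lay below them in 3 (Trex1, H2bc9 and H3c4), against 15.9% of all genes, and above them in 3 (Gm11335, Lrch4 and Gm3373), against 15.1%. Over the 31 histone genes that passed in both tables, the median difference of control 1 was -0.14. Of the 14 lower histone genes, 7 passed the mean of 10 there, and others were near 0, such as H4c6, which lay between 0 and 6.85 in the 6 libraries. The 2 kinds of library preparation and the 2 experiments cannot be told apart in this comparison.

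Genotype was tested in the Kir2.1 experiment by limma with Benjamini-Hochberg adjustment over 19807 genes, of which 70 (0.353%) had an adjusted p under 0.05. None of the 23 higher and 19 lower genes was among them, and 5 of each had an unadjusted p under 0.05. With the score as a term, 22 genes were called, 18 of them among the 70, and without control 1, 25 were called, 20 of them among the 70. The count was also lower without any of the other libraries, at 23 without control 2, 33 without control 3, and 25, 34 and 44 without Kir2.1 mouse 1, 2 and 3.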

How the data were processed

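The authors extracted RNA from whole olfactory epithelia, estimated transcript abundance with Salmon 1.3.0 against GRCm38, summed it per gene, and scaled it with DESeq2 1.30.0. The deposited values are this normalized signal per gene, in 1 table for each experiment (names and versions are from the submitters' processing notes and the study's methods). Salmon was described as run with a reverse-stranded setting, although the Kir2.1 libraries were unstranded. Depth was estimated from the most frequent value above 0, taken as 1 read: 9764662 to 15074993 reads in PEA and 32513159 to 35397347 in Kir2.1 libraries. Only 4.34% to 6.47% and 16.4% to 18.5% of low values were whole multiples of it (tolerance 0.001), so whole reads were not recovered and count tests not run.

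Values were taken as log2(value + 1), which understates the differences of low genes, and genes with a mean of at least 10 were kept. The split rests on the values, so high and low libraries were compared without a test. Exposure and genotype were tested with limma 3.58.1 (R 4.3.3; mean-variance trend, Benjamini-Hochberg adjustment), after a check on simulated data. The p-values measure the spread between mice whose litters are not given. Other steps ran in Python 3.11.15 with scipy 1.17.1, pandas 2.3.3 and numpy 2.4.6, and figures were drawn with matplotlib 3.10.9. Gene positions came from GENCODE vM21 (96.0% of 51211 symbols matched) and promoters from RefSeq. The members and the lists were chosen with earlier results of these data known.

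Genes were named if on a marker list, among the 25 highest and 15 lowest called genes that were not receptors, gene models or pseudogenes, called by exposure as well as by class (none was), among the 3 most abundant genes of each receptor family, or among the 10 most abundant other called genes. Ang4, Ang5, H2-K1, the histones, small RNAs and gene models not covered by this, and the pseudogenes were named after their values were seen. Alternatives were pseudocounts of 0.5 and 5, no filter, a mean of 50, median centring, thresholds of 4 and 5 for the score, a difference of at least 2, scores from 1 receptor family, added model terms, the replicate block and each library left out. The differences within exposure groups and within sexes were added after the data were seen.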

Additional observations from a re-analysis of the deposited data

Results flagged for a closer look

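In each group of 4 PEA mice, the highest or lowest mouse was set against the other 3 by the ratio of its gap to the range, for 86 values in 2 groups. Of the 172 tests, 17 passed Dixon's 95% critical value, and chance passes about 1 group in 20. That rate does not apply to the score and to genes called between high and low libraries: the choice of the libraries sets exposed mouse 1 and control mouse 4 apart in their groups, so these values are a description.

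PEA-exposed mouse 1, the sole high library among exposed mice, stood apart in its score (5.33, against 1.38 to 1.66), in Fpr-rs3 (7.93, the others listed at 0), Acvrl1 (66.5, against 16.9 to 21.1), Ccdc167 (411, against 153 to 180), Rps19-ps6 (295, the others at most 33.1), H3c7 (3.29, against 85.0 to 132) and Tmem254a (33.6, against 175 to 190). Control mouse 4, the sole low library among controls, stood apart in H4c6 (54.9, against 7.39 to 8.41) and Inpp5d (91.8, against 34.3 to 35.0).

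Control mouse 1 stood apart in Olfr90 (49.9, against 15.9 to 18.2) and in the summed bone genes (2969, against 1219 to 1306), and control mouse 3 in the summed nasal lipocalins and odorant-binding proteins (28396, against 36915 to 38953). PEA-exposed mouse 4 stood apart in Hist1h2ap (39.8, against 16.3 to 18.6) and in the sums of the axon sorting genes (5065, against 5864 to 6018) and of the necklace and Grueneberg neuron genes (958, against 1306 to 1353). PEA-exposed mouse 3 stood apart in the summed signaling genes (2403, against 2667 to 2718) and PEA-exposed mouse 2 in Gnrh1 (14.1, against 3.55 to 4.35).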

How the results depend on the processing

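The same 34 and 29 genes were called when the score came from Vmn1r or from Vmn2r genes alone. The counts of higher and lower genes moved to 151 and 98 with no filter on low values, to 9 and 14 with a mean of at least 50, to 65 and 49 with a score threshold of 5 (2 high libraries), and to 16 and 7 with a difference of at least 2. With a threshold of 4 (3 high libraries) 28 genes were higher and 16 lower, and 13 and 4 of them were among the 34 and 29, against 13 and 2 with a threshold of 5. With each library left out in turn, 39 to 72 genes were higher and 38 to 112 lower. Pseudocounts of 0.5 and 5 and median centring kept both counts within 1.5 times. For exposure, limma called 52 genes with no filter, 16 with the class and 20 with the score as a term, and 19 to 43 with each mouse left out. For genotype it called 22 with the score as a term and 23 to 44 with each mouse left out. The cause of these changes was not tested, except that fewer genes are examined under a higher mean and fewer libraries must separate when 1 is left out.

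Over all genes, same-numbered mice deviated little together from their group means (correlations -0.05 to 0.14 in the PEA and -0.06 to 0.16 in the Kir2.1 experiment). Such correlations cannot exclude that the numbers pair mice. The score was highest in mouse 1 of both PEA groups (5.77 in controls, 5.33 in exposed mice). In the Kir2.1 experiment it was 6.06 in control 1 and 2.38 in Kir2.1 mouse 1. The library of control mouse 4 carries another number in its deposited name, so its pairing with exposed mouse 4, on which 1 of the PEA correlations and the block rest, is uncertain. With the replicate block, limma called 23 genes for exposure, 20 of them among the 31, and 9 for genotype, 8 of them among the 70. In the PEA experiment 53 of the 126 receptor genes then had an unadjusted p under 0.05 in limma, against 6 without the block, with 0 adjusted in both.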
